A study of Drosophila melanogaster with 3 samples.

Results

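The genes described here are 10 listed for the Drosophila SAGA histone acetyltransferase complex, out of 13945 protein-coding genes on the chromosome arms. They were taken by name from the Ensembl annotation, and all 10 symbols matched: Gcn5, Ada2b, Ada2a, not, Sgf11, e(y)2, wda, Spt3, Saf6 and Nipped-A. Binding of the CG14050 protein at these genes was read from peak lists of a chromatin immunoprecipitation experiment with sequencing (ChIP-seq) on whole Drosophila melanogaster embryos 0 to 24 hours old. The embryos came from transgenic flies of the strain CG14050-GFP, which make CG14050 fused to enhanced green fluorescent protein (eGFP), and the fusion was pulled down with an antibody against GFP. There were 3 biological replicates of this 1 group, chromatin was sonicated, and the labelled fragment size was 200 to 800 bp. No embryos without the tag and no input library were analysed here. Whole embryos mix all tissues and stages, so the lists do not show in which cells a region was bound.

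SAGA is a large co-activator that is carried to genes by transcription factors and then modifies nucleosomes near promoters. One module acetylates histone H3, another removes ubiquitin from histone H2B, a core of histone-fold and WD40 proteins holds the complex together and contacts the TATA-binding protein, and a very large subunit binds activators. Several of its subunits also work elsewhere: the acetyltransferase Gcn5 is shared with the related ATAC and CHAT complexes, and the deubiquitinase subunit e(y)2 also takes part in mRNA export. What follows concerns CG14050 at the genes of these subunits, not binding by SAGA.

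CG14050-eGFP had a peak at 4 of the 10 genes in the list that the authors call conservative, against 27.8% of all protein-coding genes. It had one at 1 of the 10, Gcn5, in every replicate, against 15.1% of all genes. Gcn5 had a peak 199 bp upstream of its transcription start site (TSS), with a signal of 413.1, at rank 264 of 3515 peaks. Ada2b, Sgf11 and e(y)2 had weaker peaks whose best ranks were 1800, 1854 and 2895. Spt3 and wda each had a peak in 1 other list, and Ada2a, not, Saf6 and Nipped-A had none in any of the 7 lists.

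The sequences under the 6 promoter peaks are shown because they are the sites on which the rest turns; each runs 5′ to 3′ in the direction of the SAGA gene. They are on the dm6 build, were read from the RefSeq genome, and span up to 151 bases centred on the summit. For Sgf11 and Spt3 they stop where the transcript starts. Capitals mark TATAAA and, in Spt3, CGATA, on either strand, and overlapping matches run together.
Gcn5 (chr3L:12524138-12524288, minus strand): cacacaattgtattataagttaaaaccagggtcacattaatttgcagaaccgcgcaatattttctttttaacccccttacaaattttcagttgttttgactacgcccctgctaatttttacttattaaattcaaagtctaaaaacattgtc
Ada2b (chr3R:8240091-8240241, minus strand): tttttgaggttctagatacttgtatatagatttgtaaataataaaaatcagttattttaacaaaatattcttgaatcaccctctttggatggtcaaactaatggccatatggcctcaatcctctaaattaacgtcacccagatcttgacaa
Sgf11 (chr3L:18681837-18681977, minus strand): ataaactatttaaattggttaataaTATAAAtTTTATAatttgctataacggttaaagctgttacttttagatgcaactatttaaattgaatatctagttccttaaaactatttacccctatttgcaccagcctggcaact
e(y)2 (chrX:11576712-11576862, minus strand): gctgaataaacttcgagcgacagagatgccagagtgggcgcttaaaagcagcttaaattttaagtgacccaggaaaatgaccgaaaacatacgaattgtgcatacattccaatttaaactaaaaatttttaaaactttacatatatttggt
Spt3 (chr3R:12017032-12017155, plus strand): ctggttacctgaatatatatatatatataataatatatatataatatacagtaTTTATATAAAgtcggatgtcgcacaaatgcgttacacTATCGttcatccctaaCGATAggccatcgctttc
wda (chr3R:23258185-23258335, minus strand): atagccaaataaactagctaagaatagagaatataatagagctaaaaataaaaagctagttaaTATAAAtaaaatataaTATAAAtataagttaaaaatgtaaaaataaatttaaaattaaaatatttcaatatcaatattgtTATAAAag

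A set of 9 short DNA words, most of them known from fly promoters and insulators, was looked for on both strands. They were TATCGATA (the DNA replication-related element), CGATA (the core of the insulator protein BEAF-32, which also lies inside the previous word), GGTCACACT (the core of the promoter factor M1BP), AGATGGCGC and AGGTGGCGC (forms of the CTCF core), TATAAA (the TATA box), GAGAG (for GAGA factor), CAGGTAG (for Zelda) and ACAGTG (a word picked because it is frequent in these peaks). The windows of Gcn5, Ada2b and e(y)2 held none of the 9. TATAAA was found in the windows of Sgf11, Spt3 and wda, and in 30.7% of the 151-base windows of all conservative peaks, against 12.8% of the windows of other ranked regions. CGATA was found in the Spt3 window alone, with 1 copy on each strand and their centres 27 and 43 bp from the summit; it was present in 20.1% of conservative windows and 15% of other ranked windows. The windows were rich in A and T. GC content was 31.8% at Gcn5, 31.1% at Ada2b, 26.2% at Sgf11, 34.4% at e(y)2, 30.6% at Spt3 and 13.9% at wda, beside a mean of 34.6% over conservative windows and 45.6% over other ranked windows. An absent word says only that these letters are not in this window.

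Each list comes in a ranked form and a thresholded form, which keeps regions with an irreproducible discovery rate (IDR) of at most 0.01. Every ranked region carries a signal from each of the 2 lists compared. Absence from a ranked list therefore does not show that a replicate had no region there. The IDR is the rate at which regions of that rank or better are expected not to recur between 2 paired lists. The thresholded lists of replicates 1, 2 and 3 held 2155, 2433 and 2282 peaks, out of 49504, 48710 and 46992 ranked regions. These are counts of called regions, and read depth was not used here. A further 4 lists were derived by the authors from the alignments of all replicates together: the conservative list of 3515 peaks and lists of 3247, 3219 and 3534. The pair of signals beside each region shows which replicates were paired. In the conservative list 63.4% of regions carried a signal found exactly in replicate 2 and 66.2% one found exactly in replicate 3, with 0 matches to replicate 1. The list of 3247 matched replicates 1 and 3 in the same way and the list of 3219 replicates 1 and 2. The list of 3534 matched no replicate, and is called the unmatched pair below. Its 2 signals at the Gcn5 promoter, 194.1 and 218.7, add up to about the pooled 413.1, and it may not compare replicates at all, so its IDRs are not read as agreement between them. The IDR of a conservative peak therefore comes from replicates 2 and 3. Its signal was close to a sum over replicates: over the 3056 conservative peaks found in all 3, the conservative signal was a median of 1.00 times the sum of the 3 replicate signals (quartiles 0.96 and 1.02).

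Counted by a summit inside the gene or within 2 kb, 4 of the 10 genes had a conservative peak, against 27.8% of all protein-coding genes. The same 4 had a summit within 500 bp of their TSS, against 14.3% of all genes. In all 3 replicate lists at once, 1 of 10 had a peak in the wider window, against 15.1%, and 1 of 10 at the promoter, against 6.87%. A ranked region of any strength lay at the promoter in all 3 replicates for 5 of the 10, which were Gcn5, Ada2a, Sgf11, e(y)2 and Spt3, against 31.4% of all genes. The strongest peaks of the 4 genes had a median rank at 52.0% of the conservative list, close to its middle. In the replicate lists it was 30.4% in replicate 1, 70.3% in replicate 2 and 31.9% in replicate 3, over the 2 or 3 members with a peak there. With 10 genes, 1 gene more or less moves a share by 10 percentage points, and no test was made on the list because it was chosen with results of these data known.

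**Figure D1:**
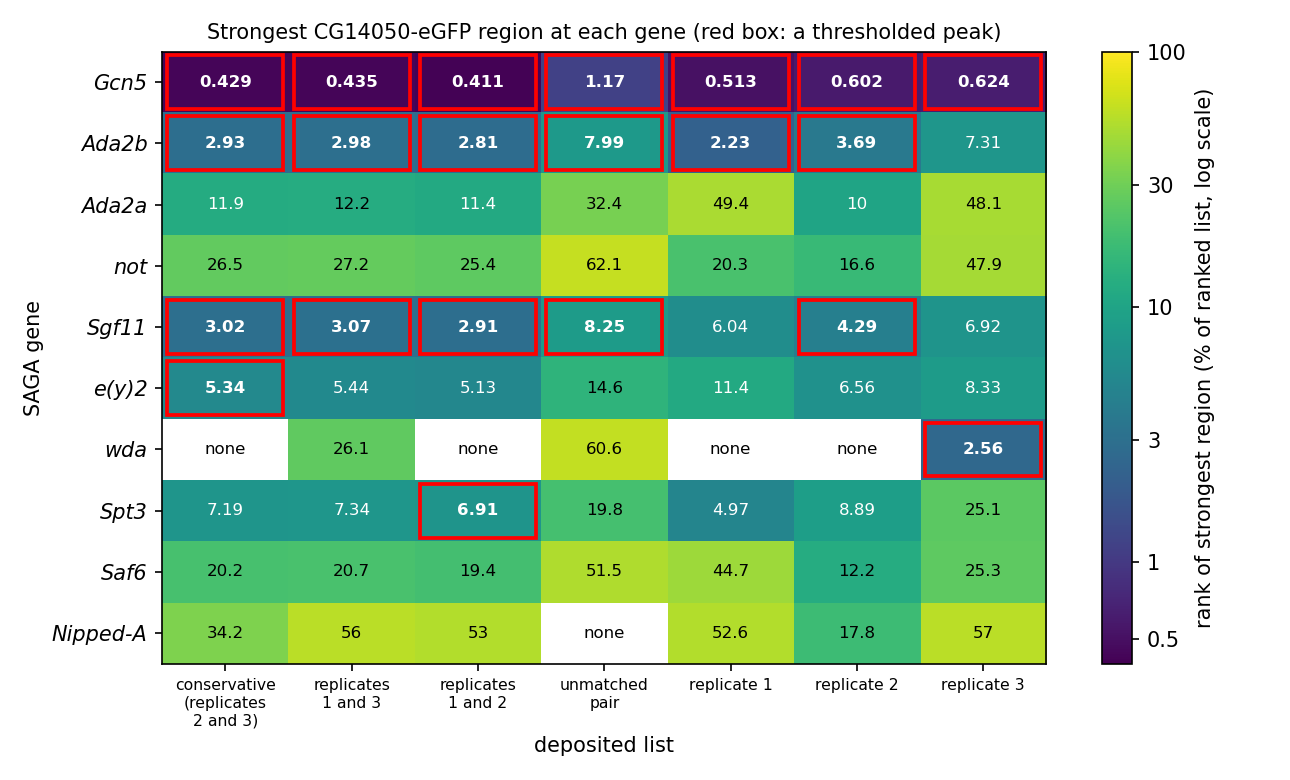
Strongest region inside each SAGA gene or within 2 kb of it (rows) in each of the 7 lists (columns). Numbers and colour give its rank as a percentage of the ranked list on a log scale, so lower is stronger, a red box marks a gene with a peak in the thresholded list, and none means no ranked region. Gcn5 was boxed in all 7 lists at 0.411% to 1.17%, while Ada2a, not, Saf6 and Nipped-A were boxed in none.

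Promoters in Drosophila are often shared. Of the 10 genes, 8 have another gene starting within 1 kb on the opposite strand, against 5068 of all 13945 protein-coding genes. Among the 10, only Ada2b and Nipped-A do not. Of 23 other genes of SAGA, ATAC and CHAT, 16 have such a neighbour. Over all genes, 24.9% of the 5068 with such a head-to-head neighbour had a conservative promoter peak, against 8.27% of the 8877 others. Among the SAGA genes it was 3 of the 8 with a neighbour and 1 of the 2 without. A peak between 2 starts cannot be given to one of the genes from these lists, and the neighbour is named beside each such peak.

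Gcn5 (FBgn0020388, 3L from 12521129 to 12524014, minus strand), the catalytic acetyltransferase, had the strongest signal of the 10. Its start lies 27 bp from that of ver, the gene of the telomere protein verrocchio, and the 5′ ends of the 2 genes overlap. A further annotated start of ver, at 12524427, lies on the other side of the summit. The summit at 12524213 lies upstream of Gcn5 and within an intron of ver, 199 bp from the start of Gcn5 and 214 bp from that further start of ver. Replicates 1, 2 and 3 gave it signals of 123.9, 137.6 and 144.9 (mean 135.5 ± 10.7, SD, n = 3), with summits within 3 bp of each other. All 3 replicates placed it high, at ranks 254, 293 and 293 of their ranked lists. The coefficient of variation was 7.87%, against a median of 22% over the 3056 conservative peaks found in all replicates, and the spread of summits was 3 bp against a median of 40 bp. Such closeness was not particular to Gcn5. Replicates 1, 2 and 3 gave the peak near Taf9 signals of 122.7, 124.9 and 139.7, with summits at 17844850, 17844851 and 17844848. They gave the strongest chif peak 287.8, 279.6 and 320.2, with summits at 16351211, 16351210 and 16351211. The IDR of the Gcn5 promoter peak was 1e-05 in each of the 7 lists. No IDR at the SAGA, ATAC and CHAT genes was lower. This value may be the lowest that the lists can hold, so it does not order the peaks that share it. Peaks at chif, Atxn7, Taf9 and Taf12 shared it in all 7 lists, and peaks at other genes in some of them.

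A second peak in the window of Gcn5 lay on its other side, 4464 bp downstream of the TSS, with the summit at 12519550 in the 3′ UTR of tral, whose product acts in RNA storage and translation control. Its conservative signal was 134.9, at rank 1741 of 3515, with an IDR of 0.0011. Replicates 1, 2 and 3 gave 48.4, 30.5 and 51.2 (mean 43.4 ± 11.2, SD, n = 3), and replicate 2 was the one in which it missed the threshold, with an IDR of 0.06.

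Ada2b (FBgn0037555, 3R from 8236632 to 8240515, minus strand), the adaptor that ties Gcn5 to SAGA in flies, had 2 conservative peaks, both in an intron downstream of the TSS. The stronger had its summit at 8239913, 602 bp into the gene, with a signal of 131.5 (rank 1800, IDR 0.002). The weaker had its summit at 8240166, 349 bp into the gene, with a signal of 64.9 (rank 3199, IDR 0.0058). The summits were 253 bp apart and the peaks shared 77 bp. An annotated Tc1-2 transposon fragment of 76 bp begins 10 bp from the stronger summit, inside that peak, of which 45.5% is marked as repeat or low complexity.

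The replicates differed in which of the 2 sites they placed first. At the stronger site replicates 1, 2 and 3 gave 57.6, 36.0 and 33.7 (mean 42.5 ± 13.2, SD, n = 3), and replicate 1 alone passed the threshold there. At the weaker site replicate 1 had no ranked region within 150 bp, replicate 2 gave 47.7 and passed, and replicate 3 gave 27.6 and did not. Replicate 3 thus had no thresholded peak at Ada2b at all. In both lists that use replicate 1, the same replicate 1 peak of 57.6 was paired with both pooled peaks, so the 2 rows are not separate evidence from that replicate. The weaker site had an IDR of 0.56 in the unmatched pair.

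Ada2a (FBgn0263738, 3R from 18252843 to 18255487, minus strand), the relative of Ada2b that serves the ATAC complex in flies, had no thresholded peak. Its annotated span and TSS are also those of Polr2D, an RNA polymerase II subunit gene, and moi starts 43 bp away on the other strand. At the TSS each replicate had a ranked region, with signals of 10.7, 7.22 and 10.9, at ranks 34944, 48586 and 43696. Of lists of 49504, 48710 and 46992 regions, all 3 ranks lie in the lower part. The strongest region in its window reached 55.1 in the conservative ranked list, with a TSS of CG18598 155 bp away and that of Ada2a 4527 bp away.

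**Figure D2:**
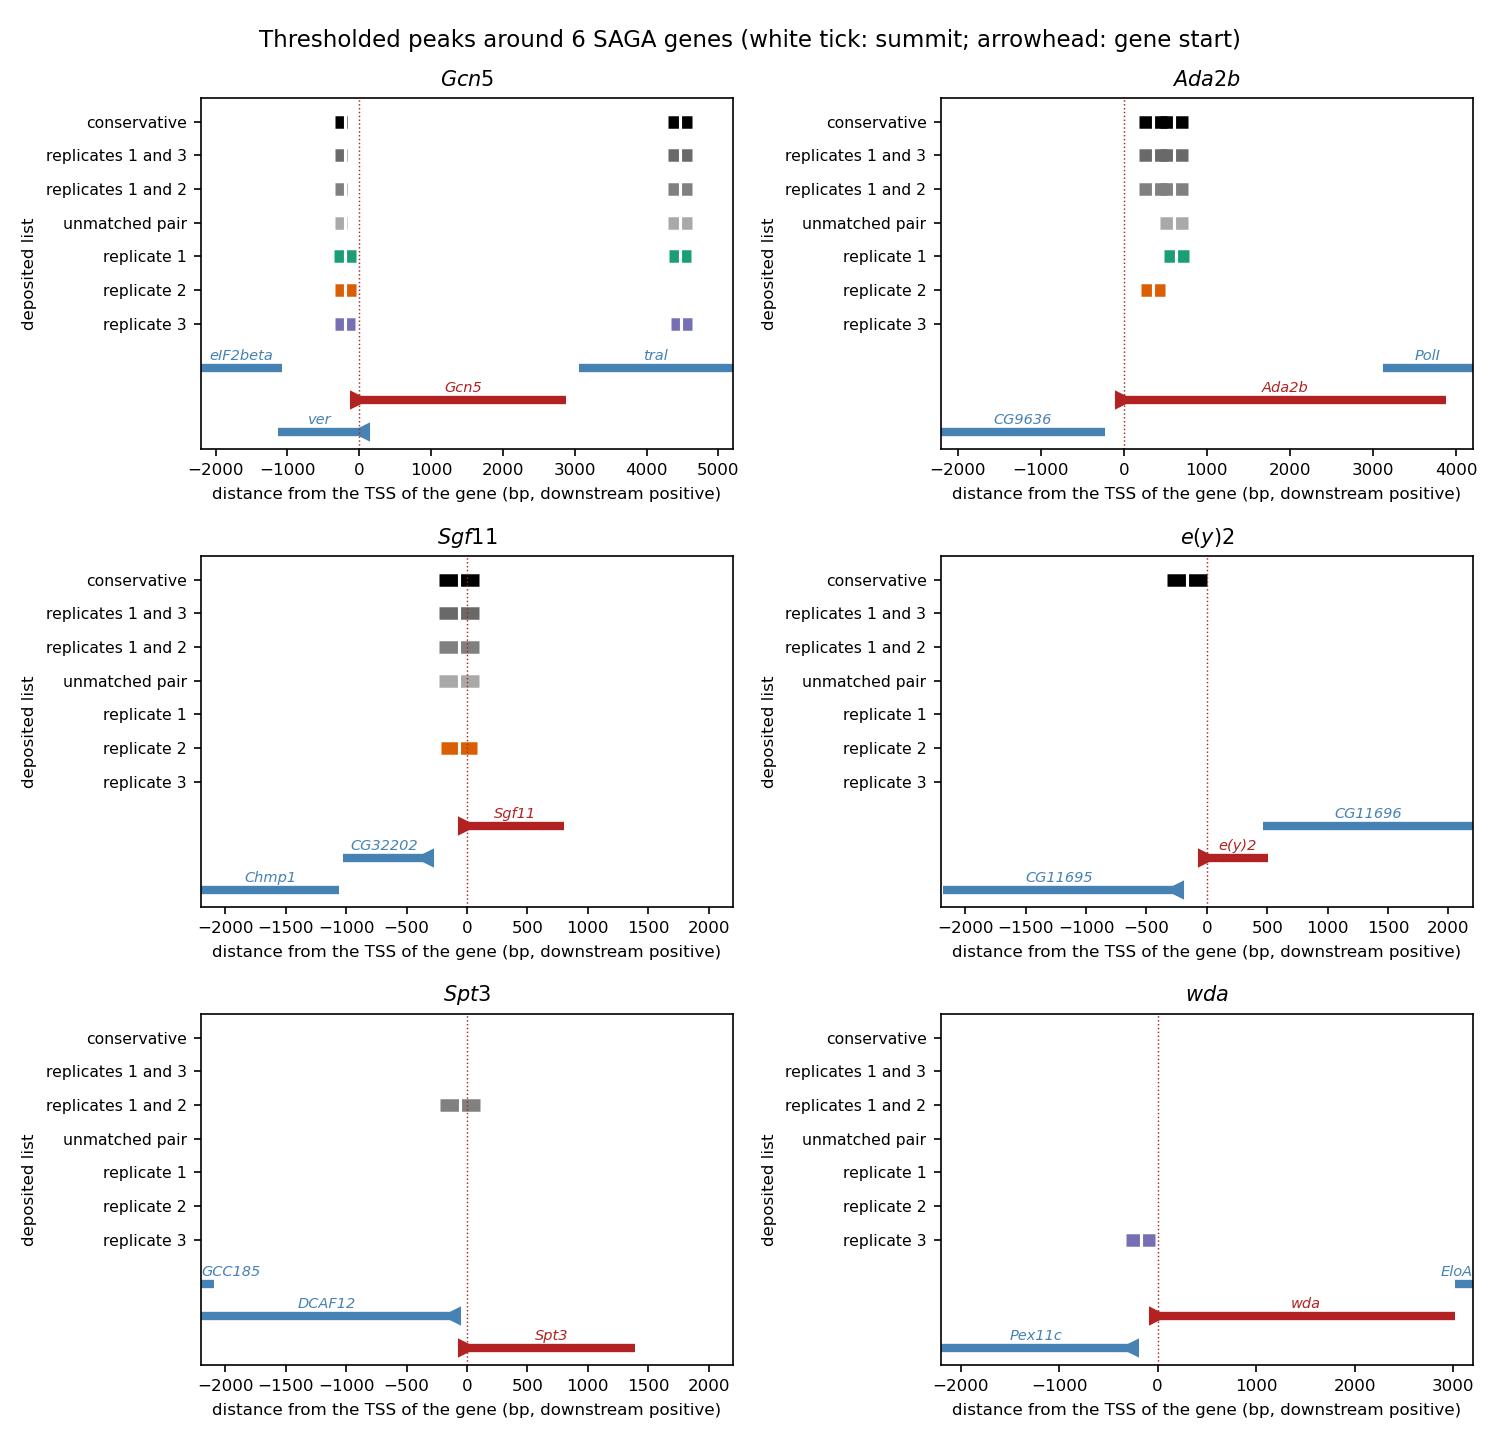
Thresholded peaks of the 7 lists (bars, with a white tick at the summit) around 6 SAGA genes, against distance from the TSS in bp, with downstream positive. SAGA genes are red, other protein-coding genes are blue and arrowheads mark starts. Gcn5 carries a peak 199 bp upstream in every list, Ada2b peaks lie 349 and 602 bp inside the gene, and Spt3 and wda each have a peak in 1 list.

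The deubiquitinase module was represented by 3 genes. Sgf11 (FBgn0036804, 3L from 18681037 to 18681836, minus strand), which encodes a small zinc finger subunit that activates the protease, had a conservative peak 66 bp upstream of its TSS. The summit at 18681902 lies between the starts of Sgf11 and CG32202, which are 348 bp apart, and is nearer to Sgf11. The conservative signal was 128.7, at rank 1854, with an IDR of 0.0011. Replicates 1, 2 and 3 gave 32.5, 42.9 and 34.8 (mean 36.7 ± 5.48, SD, n = 3). All 3 held a region there, with summits 42 bp apart at most, and replicate 2 alone passed the threshold. It passed in the 3 lists that pair replicates, at IDRs of 0.0011 to 0.003, and in the unmatched pair, at 0.001.

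For e(y)2 (FBgn0000618, X from 11576118 to 11576620, minus strand), the gene of the ENY2 homologue, the summit at 11576787 lay 167 bp upstream of its TSS. It was closer to the start of CG11695, at 96 bp, on the other strand. The conservative signal was 86.1, at rank 2895, with an IDR of 0.0037. Replicates 1, 2 and 3 gave 24.1, 32 and 31.6 (mean 29.2 ± 4.46, SD, n = 3), and none passed alone, at IDRs of 0.31, 0.046 and 0.26. The pairs that include replicate 1 gave IDRs of 0.014 and 0.011, just above the threshold, and the unmatched pair gave 0.035. The call at e(y)2 was therefore made in the conservative list and in no other.

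The protease itself is encoded by not (non-stop; FBgn0013717, 3L from 18618305 to 18622129, minus strand). It had no thresholded peak in any list. Its strongest region in the conservative ranked list had a signal of 40.3, at rank 16860 of 63709, 822 bp inside the gene, with an IDR of 0.69. At the TSS replicates 2 and 3 had ranked regions of 12.2 and 12.9, and replicate 1 had no ranked region within 500 bp. The gene bora starts 563 bp away.

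**Figure D3:**
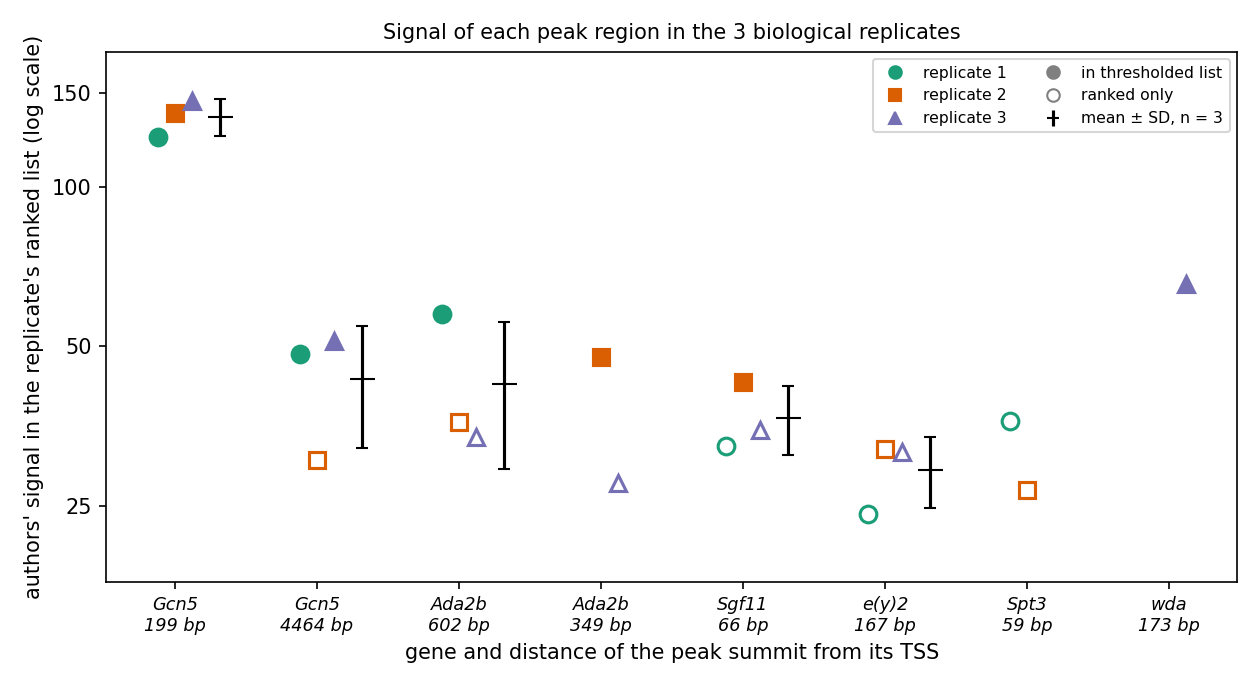
Deposited signal, on a log scale, of the region within 150 bp of each peak summit in replicates 1, 2 and 3, by gene and distance from the TSS. Filled symbols passed the threshold in that replicate, open symbols were ranked only, and bars give mean ± SD for n = 3. Gcn5 sits at 123.9 to 144.9 with all 3 filled, the sites of Sgf11 and e(y)2 lie between 24.1 and 42.9, and wda has 1 point, at 65.6.

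Among the core subunits, Spt3 (FBgn0037981, 3R from 12017156 to 12018550, plus strand), a histone-fold protein known in yeast for its contact with the TATA-binding protein, had a region 59 bp upstream of its TSS. The start of DCAF12 is 125 bp away on the other strand. The summit at 12017097 had a signal of 70.3 and passed in the pairing of replicates 1 and 2, at rank 2957 of 3219, with an IDR of 0.0047. Replicates 1 and 2 gave 36.2 and 26.8 there. Replicate 3 had no ranked region within 150 bp. The signal paired with the site from replicate 3 was 10.6, from a summit 303 bp upstream of the TSS. Pairings with replicate 3 gave IDRs of 0.76 and 0.75, and the unmatched pair gave 0.56.

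The pattern at wda (FBgn0039067, 3R from 23255070 to 23258087, minus strand), which encodes a WD40 protein akin to TAF5, differed from that at Spt3 in which replicate held the signal. Replicate 3 had a peak 173 bp upstream of the TSS, at 23258260, with a signal of 65.6, at rank 1173 of 2282 and an IDR of 8.6e-05. Replicates 1 and 2 had no ranked region in the gene or within 2 kb of it in their own lists. None of the 4 lists made from all replicates had one within 500 bp of its TSS. The list pairing replicates 1 and 3 held 3 weak regions in the window, 2 of them in the gene. For these, replicate 1 contributed signals of 7.34 to 10.8, so it had weak regions that its own ranked list leaves out. The start of Pex11c, a peroxisome biogenesis gene, lies nearer, at 105 bp. Peaks of this kind were rare: 15 of the 2275 thresholded peaks of replicate 3 on the arms, or 0.659%, had no ranked region within 150 bp in either other replicate. Its window also had the lowest GC content of the 2275, at 13.9%. Whether the base composition plays a part in the difference between replicates was not tested.

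Saf6 (FBgn0031281, 2L from 813314 to 815950, minus strand), a histone-fold SAGA subunit, had no thresholded peak and no ranked region within 500 bp of its TSS in any list. Its strongest conservative ranked region, with a signal of 44.8, lay 1833 bp upstream in a coding exon of CG15880, at rank 12866.

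**Figure D4:**
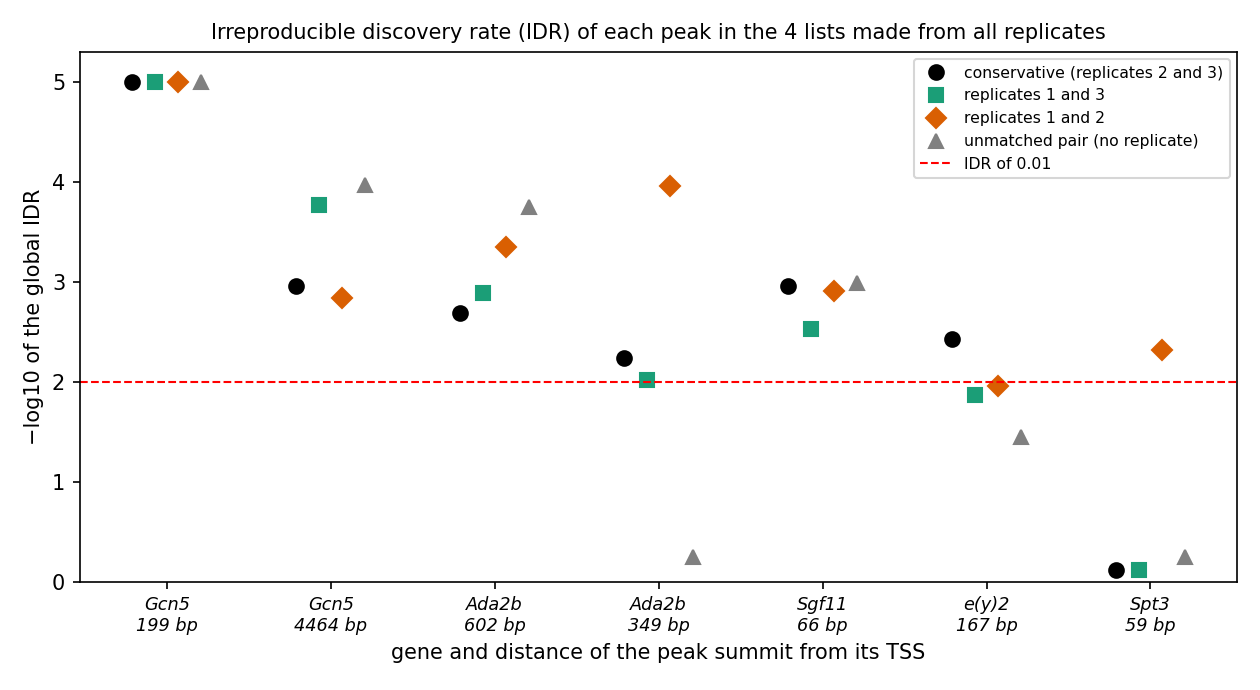
The −log10 of the IDR at each peak site in the 4 lists made from all replicates, by gene and distance of the summit from the TSS; higher is more reproducible and the dashed line is the IDR of 0.01. The Gcn5 promoter peak stands at 5.0 in all 4, a value that peaks at other genes share. The peak of e(y)2 is above the line in the conservative list alone (2.43, then 1.87, 1.96 and 1.45). Spt3 is above it in the pairing of replicates 1 and 2 alone (2.32).

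Nipped-A (FBgn0053554, 2R from 5177965 to 5251022, minus strand), the Tra1 homologue that binds activators, is by far the longest of the 10, at 73058 bp. The window grows with the gene, and 57.4% of the 162 genes at least as long had a conservative peak in it, against 27.8% of all genes. Nipped-A had none, and no ranked region lay within 500 bp of its TSS. The window held a mean of 4.67 ± 1.53 ranked regions per replicate (SD, n = 3), or 0.606 per 10 kb, against 3.59 per 10 kb over the chromosome arms. Its strongest signals were 12.9, 20.0 and 15.5 in replicates 1, 2 and 3. Of its 77058 bp window, 29.6% is marked as repeat or low complexity, against 20.3% of the arms, and the window holds 57 annotated transposons. How well reads can be placed there was not tested.

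For comparison, 23 other genes of SAGA, ATAC and CHAT were looked up. A conservative peak lay in the gene or within 2 kb for 10 of them, against 27.8% of all genes, and within 500 bp of a TSS for 4, against 14.3%. The 4 were Ada3, Sgf29, Atxn7 and chif; 3 of them are among the 13 other SAGA genes and 1 among the 10 of ATAC and CHAT. In all 3 replicates at once, 8 of the 23 had a peak in the wider window, against 15.1%, and 2, Ada3 and chif, at the promoter, against 6.87%. The gene's own TSS was the nearest to 4 of the 6 conservative peaks at the 10 members and to 4 of the 16 at these other genes. The 4 at the members include both overlapping Ada2b peaks, and the 4 at the other genes lie at 2 genes, Atxn7 and chif. No share over all genes is given beside these counts, so they are not read as a difference.

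The strongest peak at any of the 33 genes was at chif, whose product carries the Gcn5-binding part of the CHAT complex and also the activator of the Cdc7 kinase. Its signal was 871.0, at rank 50 of 3515, in an intron 926 bp upstream of its nearest TSS, and a further chif peak 119 bp upstream of a TSS had a signal of 180.3. Ada3, a partner of Gcn5 and Ada2b in the acetyltransferase module, had a peak 174 bp upstream of its TSS with a signal of 159.8 (rank 1377), nearer to the start of CG7536. Atxn7, which anchors the deubiquitinase module, had a promoter peak 23 bp upstream of a TSS with a signal of 144.6 (rank 1590). Sgf29, a reader of methylated histone H3, had one 200 bp upstream with a signal of 83.5 (rank 2942), in the 5′ UTR of RpL29. By signal in the conservative list, the Gcn5 promoter peak at 413.1 thus stands above the promoter peaks of Ada3, Atxn7 and Sgf29 and of the other 3 members that have one. It does not stand above every peak in the wider window. The chif peak of 871.0 was stronger. So was 1 lying 4669 bp downstream of an Atxn7 TSS, next to the start of Eogt, with a signal of 465.6 (rank 215). A peak downstream of Taf9, next to Ucp4A, was somewhat weaker than the Gcn5 promoter peak, at 390.1 (rank 287).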

How the data were processed

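CG14050-eGFP ChIP-seq of 3 biological replicates was analysed from peak lists. The deposited signal of a region is the authors' measure of peak height; its scale, the peak caller, the aligner and all settings are unknown, being not given in the sources used here. The pair of deposited scores beside each ranked region holds the signals of the matching peaks in the lists compared. Ranks by signal were taken inside 1 list at a time. The IDR was deposited as −log10 and converted back. Coordinates are on dm6, per the labels. The position of the summit, another deposited value, is the start plus an offset; in 81.3% of conservative peaks it is the midpoint of the peak. Summits were placed on Ensembl release 115 (BDGP6, 6.54) with Python 3.11.15, pandas 2.3.3 and numpy 2.4.6. A region was taken as the same in another list if its summit lay within 150 bp. The code that assigns summits to genes was tested on simulated peaks placed at known genes. All 10 members are named, with the other SAGA, ATAC and CHAT genes that had a promoter peak. Members, lists and motifs were chosen with earlier results of these data known. Alternatives were other windows, lists and IDR limits, and leaving out each replicate. No test between groups exists, since there is 1 group.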

Additional observations from a re-analysis of the deposited data

How the results depend on the processing

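Of 39 alternatives to 7 counts and medians, 29 stayed within 1.5 times the value reported and 10 did not. The median rank of the strongest peaks was 30.4% in replicate 1 and 31.9% in replicate 3. An IDR of at most 0.001 left 1 member with a conservative peak, in the window and at the promoter, against 21.0% and 10.5% of all genes. A signal at or above the list median left 1 in the window, against 17.6%. In each case it was Gcn5. The second Gcn5 peak and that of Sgf11, both at an IDR of 0.0011, lie just outside the stricter limit. In the unmatched pair 2 members, Gcn5 and Sgf11, kept a promoter peak, against 13.9% of all genes. Members with a peak in every replicate list numbered 1 to 2 when 1 replicate was left out. The 2 came without replicate 3 and were Gcn5 and Ada2b. No share of all genes is given for these settings, so these counts are not read further. The other SAGA, ATAC and CHAT genes with a conservative peak numbered 5 with windows of 500 or 1000 bp, against 20.3% and 22.7% of all genes, and 16 with one of 5 kb, against 40.3%. Over the other lists made from all replicates, members with a peak numbered 3 to 4, against 25.9% to 27.4% of all genes. Across them e(y)2 dropped out and Spt3 entered in the pairing of replicates 1 and 2. No paired analysis was possible because there is 1 group. Read depth and a control library were not used here, so how far a missing peak reflects depth cannot be said.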

Other observations

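The nearest conservative summit to the TSS was measured for the 6 members without a conservative peak. It lay 3824 bp away for Saf6, with a signal of 142.4, next to a TSS of Clp, which encodes a polyadenylation factor, at 190 bp. For wda it lay 17657 bp away, for not 18557 bp, for Ada2a 35081 bp, for Spt3 47761 bp and for Nipped-A 122615 bp. The summits nearest to not and Ada2a were strong, at 502.3 and 549.9, and lay at or near the starts of MYPT-75D (705 bp) and CG7988 (120 bp).

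The density of ranked regions differed among the members, with means over the 3 replicates of 8.65 per 10 kb at Spt3, 7.52 at Ada2a and 7.24 at not, against 3.59 over the arms. The members with a conservative peak had 5.92 at Ada2b, 5.32 at Gcn5, 4.86 at Sgf11 and 3.70 at e(y)2, while Saf6 had 3.52, wda 1.42 and Nipped-A 0.606. The 3 highest densities were thus at genes with no conservative peak, but they rest on few regions. The mean counts were 4.67 ± 0.577 at Spt3, 5.0 ± 1.0 at Ada2a and 5.67 ± 3.06 at not (SD, n = 3). At Ada2b and Gcn5 they were 4.67 ± 1.53 and 3.67 ± 1.53. The order is therefore not read as a difference between genes with and without a conservative peak. The ratio of the conservative signal to the sum of the replicate signals was 1.02 at the Gcn5 promoter, 1.03 at the stronger Ada2b site, 0.98 at e(y)2 and 1.17 at Sgf11.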
